A study of Mus musculus with 34 samples.

Results

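The genes described here are the protein-coding mouse genes whose symbols start with Psma, Psmb, Psmc, Psmd, Psme or Psmg followed by a digit, which takes in the subunits, activators and dedicated assembly chaperones of the proteasome. In RefSeq 50 protein-coding symbols matched, and 49 of the 27179 identifiers in the count tables carried one of them; Psme2b had no row. Of the 49 genes, 47 encode a subunit, activator or dedicated chaperone. The other two, Psmc3ip, a partner of meiotic recombinases, and Psme3ip1, a protein that binds the nuclear activator Psme3, share only the start of the symbol. A total of 47 genes had enough counts to be tested. Psma8, the testis form of an alpha subunit, had 31 counts over all 34 libraries, and Psmb11, the catalytic subunit of the thymic epithelium, had 53, and neither was tested.

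Each library was made from naive CD4 T cells, taken from C57BL/6 mice and cultured for 3.5 days on plate-bound antibodies against CD3 and CD28, sorted by flow cytometry and lysed for RNA, and all groups shared that scheme. A 3′ mRNA library kit was used with 50 ng of total RNA, so a count is one read near the end of a transcript and does not grow with transcript length. The labels name 6 groups, TfhA_4e4 (5 libraries), Tfh5_4e4 (6 libraries), Tfh2_1e4 (6 libraries), Tfh2_2e4 (5 libraries), Tfh2_4e4 (6 libraries) and Tfh2_6e4 (6 libraries). They give neither the meaning of the codes TfhA, Tfh5 and Tfh2, nor that of the number at the end, nor the sort gate; the series title speaks of TGF-beta, c-Maf and the choice between follicular helper and TH17 cells, and the labels tie no code to these. The labels do not state that each replicate is its own mouse or culture, and a p-value here refers to the variation among the libraries at hand. In bulk RNA, fewer cells of a type and less RNA per cell cannot be told apart.

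The proteasome is the protease that degrades ubiquitin-tagged proteins. Its 20S core is a stack of alpha rings and beta rings whose catalytic sites lie on beta subunits, and a 19S particle of ATPases and other subunits recognises, unfolds and feeds in the substrate. In lymphocytes and in cells exposed to interferon, the immunoproteasome subunits Psmb8, Psmb9 and Psmb10 take the places of the constitutive Psmb5, Psmb6 and Psmb7 in newly built cores, and the 11S activator of Psme1 and Psme2 can dock on the core. The peptides released are a main source of the ligands that MHC class I molecules show to CD8 T cells.

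Total counts ran between 4481509 and 9934245 per library. The 47 genes that encode a subunit, activator or dedicated chaperone together took 14398 to 42570 counts. Mitochondrial ribosomal RNA took 12.7 to 17.5% of the counts with a gene symbol in TfhA_4e4 libraries and 5.83 to 11.6% in all others, so this share moved with the TfhA_4e4 code. A set of 8 CD4 T cell markers summed to 1674 to 1798 CPM (counts over the scaled library total) in TfhA_4e4 libraries and 1773 to 2516 CPM elsewhere, while B cell markers reached at most 1.52 CPM, macrophage and monocyte markers 2.35 CPM and erythroid markers 0.235 CPM. Dendritic cell markers, whose cells are rich in immunoproteasome, summed to 0.719 to 2.15 CPM in TfhA_4e4 libraries and 2.55 to 9.61 CPM elsewhere. Of these 5 markers Xcr1 set the lower sum, with a mean of 0.113 CPM in TfhA_4e4 libraries and group means of 3.34 to 6.13 CPM elsewhere, whereas Zbtb46 (0.802 CPM, at most 0.0885 CPM elsewhere) and Flt3 (0.379 CPM, 0 elsewhere) were highest in TfhA_4e4 libraries, where the immunoproteasome genes were also higher. Itgax was at 0 in TfhA_4e4 libraries and Siglech at 0 in all libraries. NK cell markers summed to 1.99 to 6.35 CPM in TfhA_4e4 libraries and 3.59 to 16.8 CPM elsewhere, with the defining receptor gene Ncr1 at 0 in all libraries. Most of this sum was Klrd1, with group means of 3.13 to 9.31 CPM. The 2 CD8 genes summed to 3.85 to 15.5 CPM over all libraries. Nearly all of that was Cd8b1 (group means of 5.59 to 9.69 CPM), while Cd8a had group means of at most 0.189 CPM. The part of these markers in the results was not tested. For a check of libraries, CPM were taken over the unscaled library totals. This check used 14 genes at 5 CPM or more in every TfhA_4e4 library (209 to 237 CPM summed). They were below 1 CPM in every Tfh5_4e4, Tfh2_1e4 and Tfh2_6e4 library. Of these genes Tfh2_4e4 replicate 3 held 39.6 CPM (17.9% of the TfhA_4e4 mean) and Tfh2_2e4 replicate 6 held 29.1 CPM (13.2%). The other Tfh2_4e4 and Tfh2_2e4 libraries held 0.743 to 3.19% of that mean. Some of the results that use these 2 libraries, but not all, are given with and without them.

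The start regions of the catalytic subunits and of Psme1 are printed because the results turn on these genes. Each sequence is RefSeq's window from 250 bases before to 50 bases after an annotated start on GRCm38.p6, read 5′ to 3′ on the gene's strand; capitals mark matches to the motifs described after them, and a window exists here for 41 of the 49 genes (none for Psmb7). Psmb8 (gene body chr17:34198195-34201454) is shown over chr17:34197945-34198244 on the plus strand, and its neighbour Psmb9 (chr17:34182030-34187330) over chr17:34187281-34187580 on the minus strand. Psmb10 (chr8:105935728-105938392) is shown over chr8:105938343-105938642 on the minus strand, and Psme1 (chr14:55578494-55581527) over chr14:55578244-55578543 on the plus strand. Psmb5 (chr14:54614120-54617995) is shown over chr14:54617946-54618245 on the minus strand, and Psmb6 (chr11:70525324-70527858) over chr11:70525107-70525406 on the plus strand.
Psmb8: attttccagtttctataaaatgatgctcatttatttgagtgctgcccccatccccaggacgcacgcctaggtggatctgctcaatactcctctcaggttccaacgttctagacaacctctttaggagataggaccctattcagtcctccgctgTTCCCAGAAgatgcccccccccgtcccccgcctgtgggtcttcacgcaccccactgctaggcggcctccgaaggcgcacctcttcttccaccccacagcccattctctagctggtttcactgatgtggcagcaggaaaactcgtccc
Psmb9: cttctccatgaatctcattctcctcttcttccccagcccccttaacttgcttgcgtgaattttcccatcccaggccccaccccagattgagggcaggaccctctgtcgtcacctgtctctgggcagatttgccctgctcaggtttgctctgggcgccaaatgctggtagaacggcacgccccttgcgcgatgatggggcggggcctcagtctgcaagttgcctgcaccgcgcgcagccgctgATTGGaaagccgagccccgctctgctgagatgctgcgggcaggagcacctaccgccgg
Psmb10: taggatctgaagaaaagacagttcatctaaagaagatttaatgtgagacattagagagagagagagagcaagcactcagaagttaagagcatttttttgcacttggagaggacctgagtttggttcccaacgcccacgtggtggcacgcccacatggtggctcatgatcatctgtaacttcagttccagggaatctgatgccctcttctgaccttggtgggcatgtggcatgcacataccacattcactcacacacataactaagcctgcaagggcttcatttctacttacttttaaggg
Psme1: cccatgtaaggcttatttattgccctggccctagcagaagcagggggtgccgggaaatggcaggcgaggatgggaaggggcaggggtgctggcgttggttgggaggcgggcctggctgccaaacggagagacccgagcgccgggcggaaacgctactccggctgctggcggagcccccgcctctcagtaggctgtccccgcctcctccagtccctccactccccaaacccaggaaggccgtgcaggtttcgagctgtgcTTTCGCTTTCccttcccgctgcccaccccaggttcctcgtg
Psmb5: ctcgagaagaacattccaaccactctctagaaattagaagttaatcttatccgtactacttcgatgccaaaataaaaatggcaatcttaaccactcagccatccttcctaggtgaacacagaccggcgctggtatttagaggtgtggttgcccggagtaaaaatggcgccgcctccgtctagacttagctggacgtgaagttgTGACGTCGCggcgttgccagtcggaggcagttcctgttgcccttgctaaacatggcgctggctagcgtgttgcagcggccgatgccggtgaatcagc
Psmb6: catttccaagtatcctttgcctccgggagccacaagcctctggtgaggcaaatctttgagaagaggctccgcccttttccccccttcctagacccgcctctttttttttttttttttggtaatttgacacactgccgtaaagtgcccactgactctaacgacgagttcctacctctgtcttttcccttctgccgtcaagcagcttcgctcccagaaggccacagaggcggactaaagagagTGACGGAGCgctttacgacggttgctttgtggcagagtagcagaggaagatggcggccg

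4 motifs were searched on both strands. The core of the antioxidant response element, TGACNNNGC, the sequence type bound by the proteasome regulator Nfe2l1, was found in 6 of the 41 genes (14.6%), against 14.0% of 27018 genes with a window. The capitals in the Psmb5 and Psmb6 windows, 47 and 9 bases before the start, are such matches, and Psmc6, Psmd9, Psmd12 and Psme4 held the others. The interferon-stimulated response element, GAAA, 2 bases of any kind and GAAA again, was found in 5 genes (12.2%, against 3.99% of all genes): Psme1, where the capitals begin 9 bases after the start, Psmb3, Psmd4, Psmd9 and Psmg4. The gamma-activated site, TTCNNNGAA, was found in 3 genes (7.32%, against 9.55%): Psmb8, where the capitals begin 97 bases before the start, Psmd2 and Psmg1. CCAAT was found in 16 genes (39.0%, against 41.1%), among them Psmb9, 8 bases before the start. The Psmb10 window held none of the 4. A match describes these letters only, and says nothing of binding.

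Levels differed widely within the family. Psma7, an alpha subunit, was the most counted gene, with 67226 counts over all libraries, whereas the partner of Psme1 in the 11S ring, Psme2, had 1257 and the alpha subunit Psma3 had 1397. Levels are set side by side between genes here only as ratios followed across libraries. Together the 47 genes that encode a subunit, activator or dedicated chaperone took 0.709 ± 0.055% of the counts with a symbol in TfhA_4e4 libraries (SD, n = 5). In Tfh5_4e4 libraries they took 0.663 ± 0.041% (n = 6). In Tfh2_1e4, Tfh2_2e4, Tfh2_4e4 and Tfh2_6e4 libraries they took 0.847 ± 0.051%, 0.763 ± 0.034%, 0.673 ± 0.040% and 0.613 ± 0.045% (n = 6, 5, 6 and 6). The share was therefore lower at each higher number within the Tfh2 code.

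TfhA_4e4 was set against Tfh2_4e4, which carries the same number under another code. The 3 immunoproteasome catalytic subunits were all higher in TfhA_4e4 libraries, by 1.66 to 1.75-fold, the activator subunit Psme1 was higher by 1.44-fold, and the 3 constitutive catalytic subunits did not pass the test. Among the 47 tested genes, 9 were higher and 3 lower at an adjusted p below 0.05 (edgeR's quasi-likelihood test, Benjamini-Hochberg adjustment over 11357 genes). Among all genes tested 15.5% were higher and 17.4% lower. The median log2 fold change was 0.07 over the proteasome genes and -0.01 over all genes.

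Psmb8, the immunoproteasome form of the chymotrypsin-like subunit, had 151, 158, 159, 147 and 124 CPM in TfhA_4e4 libraries, against a lowest, median and highest of 64.6, 85.6 and 102 CPM in Tfh2_4e4 libraries. All 5 TfhA_4e4 libraries lay above all 6 Tfh2_4e4 libraries. The log2 fold change was 0.80 ± 0.14 (SE; edgeR adjusted p = 7.2e-06).

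Psmb9, the caspase-site replacement, had 18.5, 36.7, 31.7, 26.1 and 18.3 CPM in TfhA_4e4 libraries, against 7.26, 15.2 and 27.2 CPM (lowest, median, highest) in Tfh2_4e4 libraries. The groups overlapped, since the highest Tfh2_4e4 library exceeded 3 TfhA_4e4 libraries. The log2 fold change was 0.73 ± 0.26 (edgeR adjusted p = 0.028), and the call was lost without both Tfh2_4e4 replicate 3 and Tfh2_2e4 replicate 6 (0.65, adjusted p = 0.0506). It was also lost without any one of Tfh2_4e4 replicates 1, 3 and 5 and TfhA_4e4 replicates 2 and 3, where the log2 fold change was 0.58 to 0.68.

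Psmb10, which replaces the trypsin-like subunit, had 46.0, 27.8, 35.1, 30.9 and 21.2 CPM in TfhA_4e4 libraries, against 10.6, 18.6 and 25.6 CPM (lowest, median, highest) in Tfh2_4e4 libraries. Only the lowest TfhA_4e4 library, replicate 6, reached into the Tfh2_4e4 range. The log2 fold change was 0.81 ± 0.22 (edgeR adjusted p = 0.0039).

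**Figure D1:**
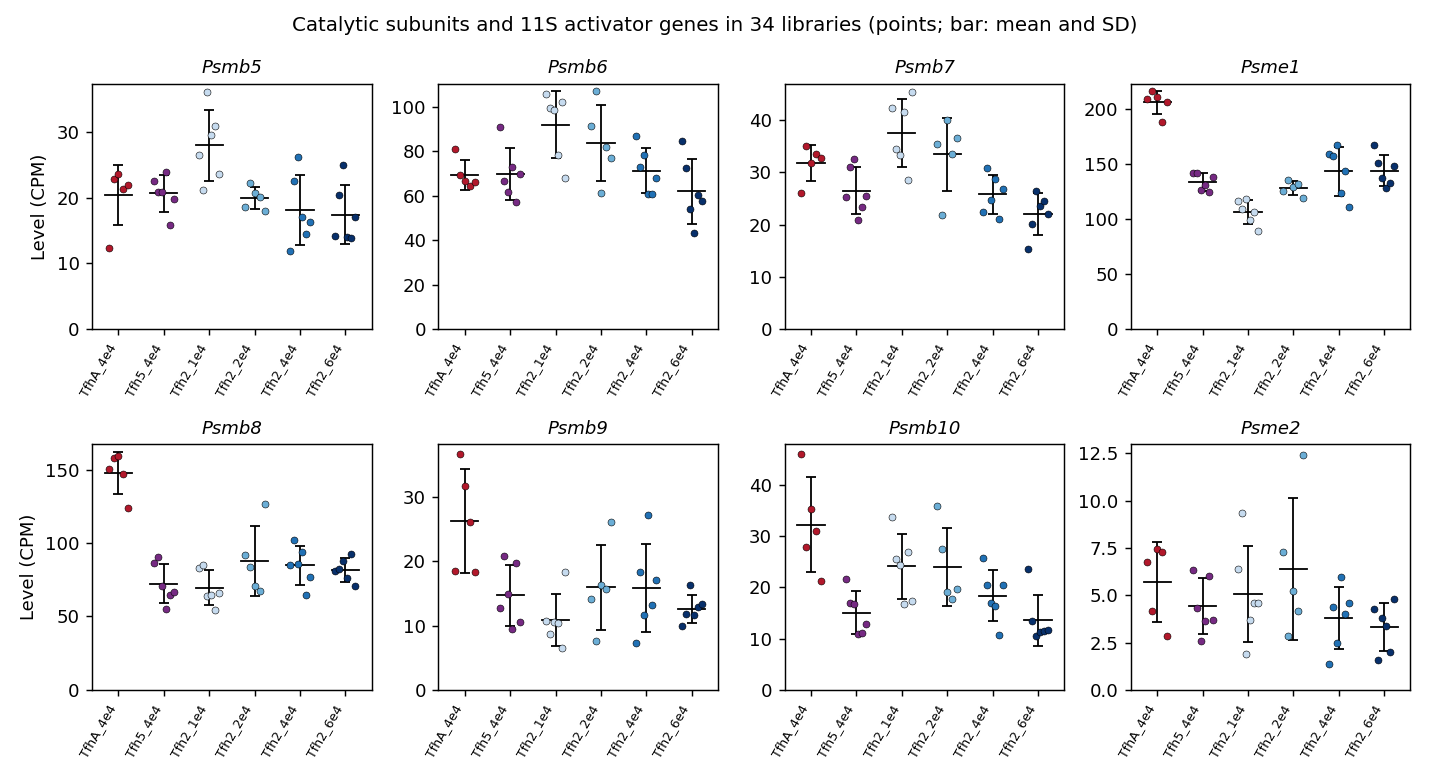
Levels of the 3 constitutive and 3 immunoproteasome catalytic subunits and of Psme1 and Psme2, in CPM (y axis, from 0), by group (x axis); each point is a library and the bar and whisker give the mean and SD. The TfhA_4e4 points of Psmb8 (124 to 159 CPM) and Psme1 (188 to 216 CPM) stand above all Tfh5_4e4 and Tfh2_4e4 points, while those of Psmb6 (64.2 to 81.2 CPM) lie within the Tfh2_4e4 range of 60.6 to 86.8 CPM.

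The constitutive counterparts did not pass the test between the same groups, and the ratios within each pair are tested further below. Psmb5, the chymotrypsin-like subunit, had 12.3, 22.8, 23.5, 21.3 and 21.9 CPM in TfhA_4e4 libraries, against 11.9, 16.7 and 26.3 CPM (lowest, median, highest) in Tfh2_4e4 libraries. All 5 values fell inside the Tfh2_4e4 range, with a log2 fold change of 0.16 ± 0.18 (edgeR adjusted p = 0.54) and a 95% interval of -0.19 to 0.52. Psmb6, the caspase-like subunit, averaged 69.5 ± 6.77 CPM in TfhA_4e4 libraries and 71.3 ± 10.3 CPM in Tfh2_4e4 libraries (SD, n = 5 and 6), a log2 fold change of -0.04 ± 0.14 (edgeR adjusted p = 0.87, interval -0.32 to 0.24). Psmb7, the trypsin-like subunit (chr2:38588046-38643952), averaged 31.8 ± 3.43 CPM in TfhA_4e4 libraries and 25.8 ± 3.73 CPM in Tfh2_4e4 libraries, a log2 fold change of 0.30 ± 0.15 (edgeR adjusted p = 0.13). The 95% interval of Psmb7 reached 0.60 on the log2 scale, so equality of the groups was not shown.

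Of the activators, Psme1 had 209, 216, 211, 188 and 206 CPM in TfhA_4e4 libraries, against 111, 150.4 and 167 CPM (lowest, median, highest) in Tfh2_4e4 libraries. The groups did not overlap, and the log2 fold change was 0.52 ± 0.10 (edgeR adjusted p = 2.5e-05). Its ring partner Psme2 averaged 5.70 ± 2.09 CPM in TfhA_4e4 libraries and 3.80 ± 1.63 CPM in Tfh2_4e4 libraries, and the log2 fold change of 0.59 ± 0.38 did not pass (edgeR adjusted p = 0.24). With so few counts Psme2 had an SE of 0.38, against 0.10 for Psme1. Psme4, the nuclear activator PA200, went the other way, with 37.4, 55.7, 37.5, 50.7 and 49.6 CPM in TfhA_4e4 libraries, against 53.1, 63.2 and 69.3 CPM (lowest, median, highest) in Tfh2_4e4 libraries. Only TfhA_4e4 replicate 2 overlapped the Tfh2_4e4 range, and the log2 fold change was -0.41 ± 0.12 (edgeR adjusted p = 0.0042).

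The other genes that were higher in TfhA_4e4 libraries were the alpha subunits Psma7 and Psma3, the ATPase Psmc1, the core chaperone Psmg4 and Psmc3ip, which is no subunit and had 551 counts over all libraries. Psma7 averaged 330.5 ± 28.5 CPM in TfhA_4e4 libraries and 242 ± 22.9 CPM in Tfh2_4e4 libraries (SD, n = 5 and 6), with no overlap and a log2 fold change of 0.45 ± 0.09 (edgeR adjusted p = 8.2e-05). Psmg4, which helps to start the alpha ring, had 33.4, 38.3, 36.6, 40.1 and 24.9 CPM in TfhA_4e4 libraries, against 15.9, 19.6 and 27.6 CPM (lowest, median, highest) in Tfh2_4e4 libraries, a log2 fold change of 0.78 ± 0.15 (edgeR adjusted p = 3.9e-05). Only TfhA_4e4 replicate 6 lay within the Tfh2_4e4 range.

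Psma3, singled out after its values were seen and counted at under 15 CPM in every library, had 7.76, 7.05, 4.97, 10.8 and 13.9 CPM in TfhA_4e4 libraries, against 1.61, 3.28 and 4.10 CPM (lowest, median, highest) in Tfh2_4e4 libraries. The groups were apart, with a log2 fold change of 1.49 ± 0.32 (edgeR adjusted p = 0.00026). How reads that match several copies of a gene were handled is not given in the sources used here, and RefSeq lists 6 pseudogenes under these symbols, none with a row, so levels of genes with copies are uncertain.

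The genes that were lower were Psme4 and a pair of 19S subunits. Psmd4, a ubiquitin receptor of the 19S particle, had 171, 154, 160.3, 128 and 153 CPM in TfhA_4e4 libraries, against 157, 199 and 214 CPM (lowest, median, highest) in Tfh2_4e4 libraries, with a log2 fold change of -0.36 ± 0.11 (edgeR adjusted p = 0.0072). Psmd3, a scaffold subunit of the lid, averaged 69.6 ± 13.4 CPM in TfhA_4e4 libraries and 87.4 ± 10.8 CPM in Tfh2_4e4 libraries, with a log2 fold change of -0.33 ± 0.12 (edgeR adjusted p = 0.028). Both pairs of groups overlapped, and the Psmd3 call was lost without Tfh2_4e4 replicate 2 (-0.29) and without TfhA_4e4 replicate 1 (-0.27), 5 (-0.32) or 6 (-0.27). It was also lost under upper quartile scaling (-0.27, adjusted p = 0.074) and with only the groups compared (-0.33, 0.065). Without the 2 libraries named at the start, 8 genes were higher and 3 lower. Without any overlap, 4 genes were higher (Psmb8, Psme1, Psma3 and Psma7; 9.53% of all genes) and none was lower (9.86% of all genes).

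Because the share of mitochondrial ribosomal RNA moved with the TfhA_4e4 code, the fit was repeated with that share as a covariate, which left 6 genes higher and 2 lower. The share did not overlap between TfhA_4e4 libraries (12.7 to 17.5%) and all others (5.83 to 11.6%). This fit therefore cannot tell the share and the code apart, whether a call was kept or lost. Calls over all genes went down as well, to 2720 with the covariate against 3729 without it, and the median over the proteasome genes was 0.21 with it against 0.07 without it. Psmb8 then had a log2 fold change of 1.03 (edgeR adjusted p = 0.00011), Psmb10 1.45 (0.00078) and Psme1 0.70 (0.00013), while Psmb9 at 0.92 no longer passed (0.075). Psmd4 at -0.16 (edgeR adjusted p = 0.49) and Psmd3 at -0.03 (0.93) no longer passed either.

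TfhA_4e4 was next set against Tfh5_4e4. The 3 comparisons between codes share libraries with each other, and that of Tfh2_4e4 with the series of numbers, so they are not independent. Again all 3 immunoproteasome subunits and Psme1 were higher in TfhA_4e4 libraries and no constitutive catalytic subunit passed the test. Of the 47 genes 10 were higher and 1 lower, and the number that were lower was 1 to 4 when 1 library was left out (4 without Tfh5_4e4 replicate 1 or TfhA_4e4 replicate 3), where 19.1% of all genes were higher and 20.4% lower. The median log2 fold change was 0.01 over the proteasome genes and 0.00 over all genes.

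Psmb8 had a lowest, median and highest of 55.4, 68.6 and 90.6 CPM in Tfh5_4e4 libraries, all under the 124 CPM of the lowest TfhA_4e4 library. It was higher in TfhA_4e4 libraries by a log2 fold change of 1.03 ± 0.14, or 2.04-fold (edgeR adjusted p = 3.8e-08). Psmb9 had 9.41, 13.8 and 20.8 CPM (lowest, median, highest) in Tfh5_4e4 libraries and overlapped TfhA_4e4 at its upper end, with a log2 fold change of 0.84 ± 0.26 (edgeR adjusted p = 0.0097), and without TfhA_4e4 replicate 2 the call was lost (0.67, adjusted p = 0.053). Psmb10 had 10.8, 14.8 and 21.6 CPM in Tfh5_4e4 libraries, of which only the highest passed the lowest TfhA_4e4 library at 21.2 CPM, and the log2 fold change was 1.10 ± 0.23 (edgeR adjusted p = 0.0001). Psme1 had 124, 134 and 142 CPM in Tfh5_4e4 libraries, all below the TfhA_4e4 libraries, and the log2 fold change was 0.62 ± 0.10 (edgeR adjusted p = 8.2e-07).

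The constitutive subunits had log2 fold changes of -0.02 for Psmb5 (edgeR adjusted p = 0.94, interval -0.38 to 0.34), -0.01 for Psmb6 (0.97, interval -0.29 to 0.27) and 0.26 for Psmb7 (0.17, interval -0.03 to 0.56). Other genes that were higher in TfhA_4e4 libraries were the alpha subunits Psma4, Psma7 and Psma3, the ATPase Psmc1, Psmg4 and Psmc3ip. Psma4 had 128, 108, 117, 108 and 99.7 CPM in TfhA_4e4 libraries, against 59.5, 76.7 and 89.0 CPM (lowest, median, highest) in Tfh5_4e4 libraries. The groups were apart and the log2 fold change was 0.55 ± 0.11 (edgeR adjusted p = 5.3e-05). Psma7 averaged 217 ± 24.6 CPM in Tfh5_4e4 libraries (SD, n = 6), with a log2 fold change of 0.61 (edgeR adjusted p = 2.7e-07).

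Psme4 was the gene that was lower, with all 5 TfhA_4e4 libraries (37.4 to 55.7 CPM) under the 64.6, 70.3 and 75.0 CPM (lowest, median, highest) of Tfh5_4e4 libraries. Its log2 fold change was -0.60 ± 0.12 (edgeR adjusted p = 3.8e-05). Psmd4 was also lower in every TfhA_4e4 library, with 128 to 171 CPM in TfhA_4e4 libraries against 172 to 193 CPM in Tfh5_4e4 libraries, but at -0.25 it did not pass (edgeR adjusted p = 0.052). In all, 6 genes were higher without overlap (Psmb8, Psme1, Psma3, Psma4, Psma7 and Psmc1) and 2 lower (Psme4 and Psmd4), where 12.6% of all genes were higher and 12.6% lower without overlap.

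Tfh5_4e4 against Tfh2_4e4 gave few calls, in this family near the share over all genes. Of the 47 genes none was higher and 1 lower, where 1.41% of all genes were higher and 1.7% lower by edgeR's test. None was higher at an unadjusted p below 0.05 either, and neither DESeq2 nor limma-voom called one. The gene that was lower was Psma4, with 59.5, 76.7 and 89.0 CPM (lowest, median, highest) in Tfh5_4e4 libraries, against 80.2, 97.5 and 131 CPM in Tfh2_4e4 libraries. No gene was higher without overlap of the groups (1.04% of all genes) and none lower (1.21%). The Psma4 groups overlapped, the log2 fold change was -0.40 ± 0.10 (edgeR adjusted p = 0.021), and the call was lost when only these 2 groups were fitted (adjusted p = 0.081), without Tfh5_4e4 replicate 3 (-0.34) or 6 (-0.38) and without Tfh2_4e4 replicate 1 (-0.33).

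The immunoproteasome subunits had log2 fold changes of -0.23 ± 0.13 for Psmb8 (edgeR adjusted p = 0.44, interval -0.49 to 0.03), -0.11 for Psmb9 (0.91, interval -0.60 to 0.39) and -0.29 for Psmb10 (0.6, interval -0.72 to 0.14). Psme1 had -0.10 ± 0.09 (0.69, interval -0.28 to 0.08), and the constitutive Psmb5, Psmb6 and Psmb7 had 0.18, -0.03 and 0.04.

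**Figure D2:**
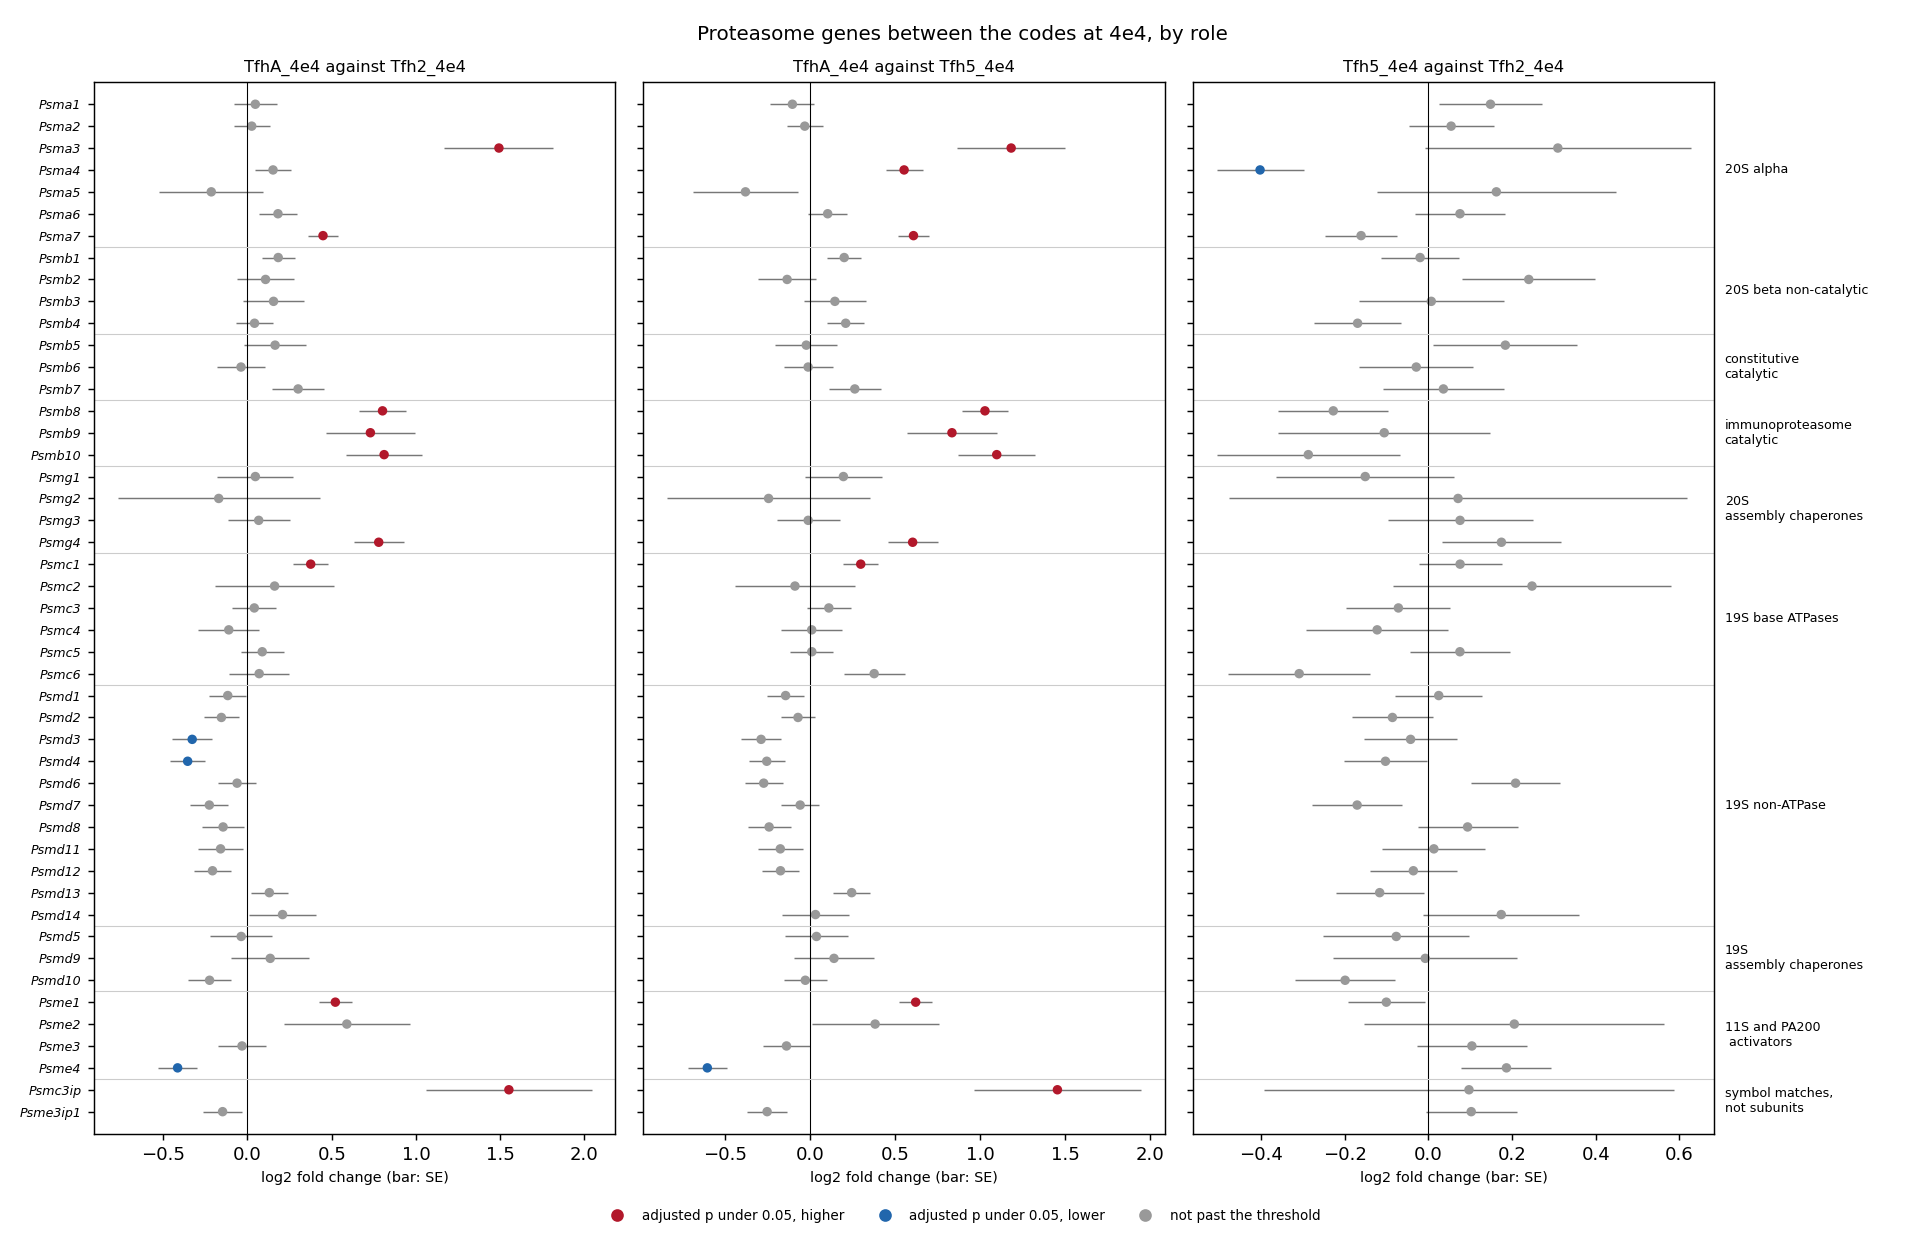
Log2 fold changes (x axis) with SE of the tested genes, grouped by role (y axis), for TfhA_4e4 against Tfh2_4e4, TfhA_4e4 against Tfh5_4e4 and Tfh5_4e4 against Tfh2_4e4; red marks genes called higher, blue lower and grey neither. Psmb8, Psmb9, Psmb10 and Psme1 are red in both panels with TfhA_4e4, and the third panel has Psma4 as its one coloured gene.

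Within the Tfh2 code, the slope on the log2 of the label number was taken over the 4 group means (23 libraries). These means came from the fit of all 34 libraries, and a slope is the log2 change per doubling of the number. Most proteasome genes fell as the number rose: 29 of 47 fell and 4 rose, where 22.8% of all genes fell and 24.1% rose. Without Psmc3ip and Psme3ip1, which are no subunits and both fell, 27 of 45 fell and 4 rose. The median slope was -0.17 over the proteasome genes and 0.00 over all genes. The means of 27 genes (57.4%) went down at each step from Tfh2_1e4 to Tfh2_6e4, against 19.5% of all genes, and those of 5 (10.6%) went up at each step, against 20.3%. With the mitochondrial ribosomal RNA share as a covariate 24 fell and 5 rose, and without Tfh2_4e4 replicate 3 and Tfh2_2e4 replicate 6 31 fell and 4 rose.

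The fall ran through the core and the 19S particle. Of the tested alpha subunits 6 of 7 fell, of the non-catalytic beta subunits 3 of 4, of the constitutive catalytic subunits 3 of 3, of the ATPases 5 of 6 and of the non-ATPase 19S subunits 7 of 11, with median slopes of -0.22, -0.13, -0.25, -0.27 and -0.17 in that order. Of the immunoproteasome subunits 1 of 3 fell, with a median slope of 0.08. None of the 4 core chaperones fell, and Psmg4 rose.

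Psmd1, a large scaffold subunit of the 19S base, had 185, 203 and 209 CPM (lowest, median, highest) in Tfh2_1e4, then 200.4, 198, 133, 156 and 149.7 CPM in the Tfh2_2e4 libraries, 93.9, 112 and 136 CPM in Tfh2_4e4 and 87.3, 92.7 and 110.0 CPM in Tfh2_6e4. The end groups did not overlap, and of the 5 Tfh2_2e4 libraries replicates 1 and 2 lay within the Tfh2_1e4 range and the other 3 between the end groups. The slope was -0.42 ± 0.04 (edgeR adjusted p = 4.6e-13), and Tfh2_6e4 was lower than Tfh2_1e4 by a log2 fold change of -1.05 ± 0.11 (edgeR adjusted p = 2.3e-11).

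Psmc5, a 19S ATPase, had means of 87.5 ± 6.60, 77.4 ± 10.8, 55.5 ± 12.9 and 43.0 ± 4.81 CPM from Tfh2_1e4 to Tfh2_6e4 (SD, n = 6, 5, 6 and 6), a slope of -0.40 ± 0.04 (edgeR adjusted p = 1.4e-10). All Tfh2_6e4 libraries (36.5 to 47.6 CPM) lay below all Tfh2_1e4 libraries (79.2 to 98.1 CPM). Psmd14, the 19S deubiquitinase, had means of 64.8 ± 11.4, 57.3 ± 16.8, 39.0 ± 14.4 and 38.6 ± 10.3 CPM, a slope of -0.33 ± 0.07 (edgeR adjusted p = 6.6e-05). Its Tfh2_4e4 libraries spread between 23.6 and 65.0 CPM, and its end groups overlapped. Psmd13, a lid subunit, had means of 149 ± 11.1, 115 ± 12.8, 102 ± 21.2 and 82.3 ± 9.02 CPM, a slope of -0.31 ± 0.04 (edgeR adjusted p = 2.7e-09), with its end groups apart.

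The constitutive catalytic subunits fell together. Psmb7 had 28.4, 38.0 and 45.5 CPM (lowest, median, highest) in Tfh2_1e4, 35.5, 21.8, 40.1, 33.5 and 36.6 CPM in the Tfh2_2e4 libraries, 21.1, 25.8 and 30.9 CPM in Tfh2_4e4 and 15.3, 22.8 and 26.5 CPM in Tfh2_6e4. The end groups did not overlap, and the slope was -0.30 ± 0.05 (edgeR adjusted p = 3.5e-06). Psmb5 had means of 28.0 ± 5.38, 19.9 ± 1.72, 18.1 ± 5.33 and 17.4 ± 4.51 CPM, most of the drop lying between Tfh2_1e4 and Tfh2_2e4, and a slope of -0.25 ± 0.06 (edgeR adjusted p = 0.00057). Psmb6 had means of 92.1 ± 15.2, 83.8 ± 17.0, 71.3 ± 10.3 and 62.0 ± 14.6 CPM and a slope of -0.22 ± 0.05 (edgeR adjusted p = 0.00024).

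Of the immunoproteasome subunits, Psmb10 passed the test and the other two did not. Psmb8 had 54.6, 65.5 and 85.1 CPM (lowest, median, highest) in Tfh2_1e4, 91.8, 83.5, 70.8, 67.2 and 126 CPM in the Tfh2_2e4 libraries, 64.6, 85.6 and 102 CPM in Tfh2_4e4 and 70.6, 81.4 and 92.8 CPM in Tfh2_6e4. These ranges overlap throughout, the highest library being Tfh2_2e4 replicate 6, and the slope of 0.08 ± 0.05 did not pass (edgeR adjusted p = 0.17, interval -0.01 to 0.17). Without that library and Tfh2_4e4 replicate 3 the slope was again 0.08 (0.115). Psmb9 had a slope of 0.09 ± 0.09 (edgeR adjusted p = 0.44), with means of 10.8 ± 3.99, 16.0 ± 6.63, 15.8 ± 6.86 and 12.6 ± 2.15 CPM. Psmb10 fell, with means of 24.1 ± 6.30, 24.0 ± 7.61, 18.4 ± 5.04 and 13.6 ± 4.97 CPM and a slope of -0.31 ± 0.08 (edgeR adjusted p = 0.00089).

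The 4 genes that rose were Psme1, the 19S chaperone Psmd10 (gankyrin), Psmg4 and Psmd4. Psme1 had 89.2, 107 and 118 CPM (lowest, median, highest) in Tfh2_1e4, 125, 135, 129, 132 and 119 CPM in the Tfh2_2e4 libraries, 111, 150.4 and 167 CPM in Tfh2_4e4 and 128, 143 and 167 CPM in Tfh2_6e4. Every Tfh2_6e4 library lay above every Tfh2_1e4 library, and the slope was 0.17 ± 0.03 (edgeR adjusted p = 2.9e-05). Psmd10 had means of 26.7 ± 2.76, 30.0 ± 2.84, 37.5 ± 4.61 and 38.0 ± 3.83 CPM and a slope of 0.21 ± 0.04 (edgeR adjusted p = 6.4e-05), its end groups apart. Psmg4 (0.13 ± 0.05, edgeR adjusted p = 0.03) and Psmd4 (0.11 ± 0.04, 0.013) had smaller slopes. The Psmg4 call was lost in 10 of 23 fits that left out 1 library (Tfh2_1e4 replicates 3 to 6, Tfh2_4e4 replicates 2 and 5, Tfh2_6e4 replicates 1, 2, 3 and 6; slopes 0.10 to 0.12), and the Psmd4 call without Tfh2_1e4 replicate 4 (0.09) or 6 (0.08). Psme2, the partner of Psme1, had a slope of -0.28 ± 0.13 (edgeR adjusted p = 0.064), and it passed in 6 of those 23 fits (Tfh2_1e4 replicate 3 or 4, Tfh2_2e4 replicate 2, Tfh2_4e4 replicate 4, Tfh2_6e4 replicate 1 or 6; slopes -0.36 to -0.30).

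The comparison of the end groups uses libraries that also enter the slope, in the same fit, and so is not independent of it. Its counts were within a few genes of those of the slope. Between Tfh2_6e4 and Tfh2_1e4 27 genes were lower and 4 higher, where 20.7% of all genes were lower and 22.3% higher, and the median log2 fold change was -0.45 over the proteasome genes and -0.01 over all genes. The 4 higher were Psme1, Psmd10, Psmg4 and Psmd4, of which 2 were left without Tfh2_1e4 replicate 6 or without Tfh2_6e4 replicate 1, 2 or 3. The Psmd4 call was lost in 9 of 12 fits that left out 1 library (Tfh2_1e4 replicates 1, 2, 4 and 6, Tfh2_6e4 replicates 1, 2, 3, 5 and 6; log2 fold changes 0.19 to 0.25), with no filter on low counts (adjusted p = 0.062) and with symbol rows only (0.058). The Psmg4 call was lost in 5 of the 12 (Tfh2_1e4 replicates 3 and 6, Tfh2_6e4 replicates 1, 2 and 3; 0.30 to 0.35). Psmd1 was at 0.484 times and Psmc5 at 0.492 times its Tfh2_1e4 level, while Psme1 was at 1.35 times and Psmd10 at 1.42 times. Without overlap 12 genes were lower, among them Psmb7, Psma6, Psma7, Psmc1, Psmc3 and Psme3, and 2 were higher, Psme1 and Psmd10, where 11.1% and 13.1% of all genes were lower and higher without overlap.

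The balance of each immunoproteasome subunit to its constitutive counterpart was followed as the log2 of the ratio of counts in a library, with 1 added to both counts. The ratio of 2 genes in one library does not depend on library scaling, and its differences were tested over libraries with a two-sided exact permutation test. Values adjusted over the 12 tests of 3 pairs and 4 comparisons are given beside the raw p, and the smallest p possible is 0.00433 with 5 libraries against 6.

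Psmb8 counts were 12.2, 6.92, 6.77, 6.90 and 5.68 times those of Psmb5 in TfhA_4e4 libraries, against 2.32, 3.60 and 4.34 times (lowest, median, highest) in Tfh5_4e4 libraries. The groups were apart, and the log2 difference of 1.08 ± 0.23 (SE) gave an exact p = 0.00433, the smallest possible, and 0.026 adjusted; without any one TfhA_4e4 library the difference was 0.91 to 1.18 and no longer passed (adjusted 0.0571), since fewer libraries raise the smallest possible p. In Tfh2_4e4 libraries the mean log2 ratio was 2.25 ± 0.369 (SD, n = 6), beside 2.88 ± 0.415 in TfhA_4e4 libraries (n = 5). This difference of 0.63 did not pass after adjustment (exact p = 0.0346, adjusted 0.0816). When 1 library was left out it was 0.45 to 0.74, and it passed only without Tfh2_4e4 replicate 1 (0.74, adjusted 0.0317). Between Tfh5_4e4 at 1.79 ± 0.322 and Tfh2_4e4 the difference was -0.46 (exact p = 0.0368, adjusted 0.0816), or -0.57 without Tfh2_4e4 replicate 3 (adjusted 0.0173).

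Within the Tfh2 code the Psmb8 to Psmb5 log2 ratio averaged 1.32 ± 0.477, 2.10 ± 0.453, 2.25 ± 0.369 and 2.25 ± 0.354 from Tfh2_1e4 to Tfh2_6e4. The largest difference between successive means lay between Tfh2_1e4 and Tfh2_2e4, but no single step was tested. Tfh2_1e4 libraries reached 2 and Tfh2_2e4 libraries ran from 1.73 to 2.81, so these groups overlapped, and the later groups overlapped widely. The means include Tfh2_2e4 replicate 6 (2.81) and Tfh2_4e4 replicate 3 (1.71), the 2 libraries named at the start. Tfh2_6e4 exceeded Tfh2_1e4 by 0.93 ± 0.24 (exact p = 0.00433, adjusted 0.026), with some overlap of libraries. In 9 of the 12 fits that left out 1 library (all but Tfh2_6e4 replicate 3 and Tfh2_1e4 replicates 2 and 6) the difference was 0.832 to 0.999 and did not pass (adjusted 0.0519).

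The other pairs did not pass after adjustment. The Psmb9 to Psmb6 log2 ratio averaged -1.45 ± 0.514 in TfhA_4e4 libraries, -2.28 ± 0.612 in Tfh5_4e4 libraries and -2.27 ± 0.807 in Tfh2_4e4 libraries. The difference was 0.84 for TfhA_4e4 against Tfh5_4e4 (exact p = 0.0476, adjusted 0.0816), 0.82 for TfhA_4e4 against Tfh2_4e4 (0.0693, adjusted 0.104) and 0.86 for Tfh2_6e4 against Tfh2_1e4 (0.0411, adjusted 0.0816), the last reaching 1.11 without Tfh2_1e4 replicate 6 (adjusted 0.0346). The Psmb10 to Psmb7 log2 ratio averaged -0.02 ± 0.545 in TfhA_4e4 libraries, -0.84 ± 0.308 in Tfh5_4e4 libraries and -0.52 ± 0.406 in Tfh2_4e4 libraries. Its difference was 0.50 for TfhA_4e4 against Tfh2_4e4 (exact p = 0.130, adjusted 0.173; 0.29 to 0.65 when 1 library was left out). It was 0.82 for TfhA_4e4 against Tfh5_4e4 (exact p = 0.0130, adjusted 0.0519; without Tfh5_4e4 replicate 1 0.94, adjusted 0.0317) and -0.07 for Tfh2_6e4 against Tfh2_1e4 (0.881, adjusted 0.961), where both genes fell.

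**Figure D3:**
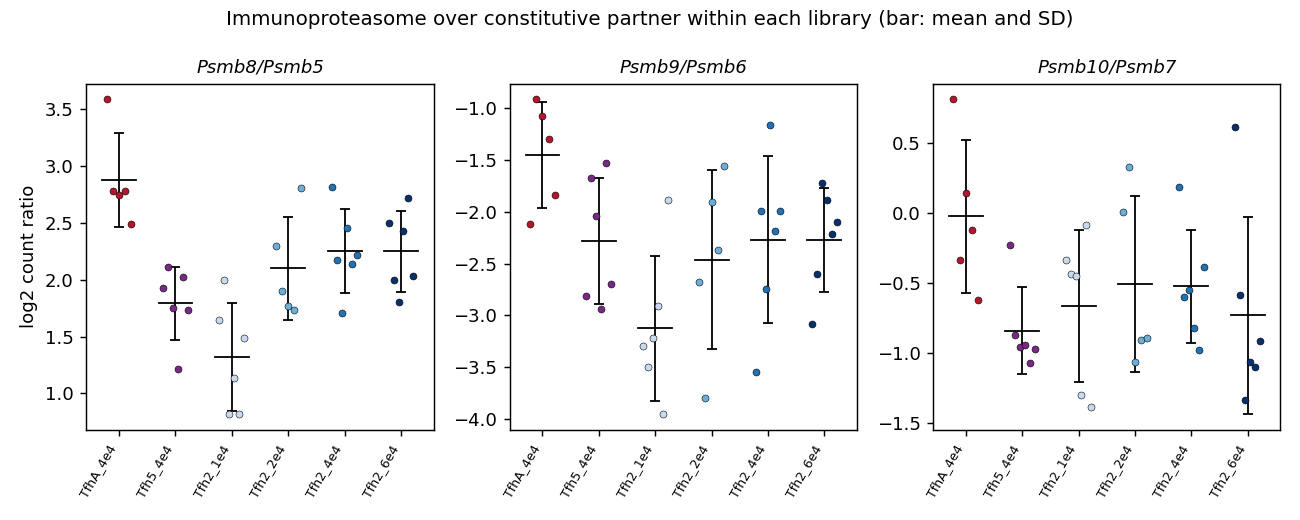
Log2 ratio of counts (y axis) of Psmb8 to Psmb5, Psmb9 to Psmb6 and Psmb10 to Psmb7 in each library (points), by group (x axis), with mean and SD. The TfhA_4e4 points of Psmb8 to Psmb5 average 2.88 and stand above all Tfh5_4e4 points, which average 1.79, and the Tfh2_1e4 points average 1.32, the lowest mean of the 6 groups.

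Pathway genes outside the family were taken from a pair of lists. Of 23 tested partners and regulators of the proteasome, 1 was higher and 6 lower in TfhA_4e4 against Tfh2_4e4, where 15.5% of all genes were higher and 17.4% lower, with a median log2 fold change of -0.04 beside -0.01 over all genes. Uba1, the main enzyme that activates ubiquitin, was among the lower ones, with 283.7 to 321 CPM in TfhA_4e4 libraries against 471 to 611 CPM in Tfh2_4e4 libraries, a log2 fold change of -0.80 (edgeR adjusted p = 1.8e-10). The higher one, named after its value was seen, was Nfe2l1, a transcription factor of proteasome genes, at 0.66 (edgeR adjusted p = 0.0013). In TfhA_4e4 against Tfh5_4e4 4 were higher and 5 lower, near the 19.1% and 20.4% of all genes, with Uba1 at -0.85 (2.4e-11).

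Of 15 genes of class I peptide loading and interferon control, 6 were higher and none lower in TfhA_4e4 against Tfh2_4e4, and 7 were higher and none lower against Tfh5_4e4. Over all genes 15.5% were higher and 17.4% lower against Tfh2_4e4, and 19.1% higher and 20.4% lower against Tfh5_4e4. B2m, the light chain of MHC class I, had 852 to 1019 CPM in TfhA_4e4 libraries, against 417 to 579 CPM in Tfh2_4e4 libraries, a log2 fold change of 0.89 (edgeR adjusted p = 2.4e-10). Nlrc5, the activator of MHC class I genes, had 12.7 to 25.1 CPM in TfhA_4e4 libraries, against 1.87 to 5.12 CPM in Tfh2_4e4 libraries, a log2 fold change of 2.41 (edgeR adjusted p = 2.4e-08). Irf1, an interferon-induced factor, had 42.8 to 54.4 CPM in TfhA_4e4 libraries, against 18.2 to 31.6 CPM in Tfh2_4e4 libraries (0.95, edgeR adjusted p = 1.8e-06). None of these 3 pairs of groups overlapped.

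Tap1, a chain of the peptide transporter and a neighbour of Psmb8 and Psmb9, had 86.1 to 90.7 CPM in TfhA_4e4 libraries, against 25.6 to 48.0 CPM in Tfh5_4e4 libraries, a log2 fold change of 1.20 (edgeR adjusted p = 7.1e-10). It was also lower in Tfh5_4e4 than in Tfh2_4e4 (50.5 to 66.3 CPM), by -0.58 (edgeR adjusted p = 0.0055) and without overlap, the one listed gene called there. No listed partner or regulator was called in that comparison, where the count at an unadjusted p below 0.05 was 3.

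Along the Tfh2 numbers 3 partners or regulators rose and 8 fell, and 6 loading or interferon genes rose and 3 fell, where 24.1% of all genes rose and 22.8% fell. The 3 loading or interferon genes of 15 that fell were near the share of all genes. Tap1 rose by 0.39 per doubling (edgeR adjusted p = 3.8e-09), beside no called change of its neighbours Psmb8 and Psmb9. Ecpas, an adaptor that binds the 19S particle, rose by 0.39 (1.2e-10). Pdia3, a thiol oxidoreductase of the peptide-loading complex, had a slope of -0.24 (1.7e-07), and Zfand5, a zinc finger protein that activates the proteasome, one of -0.20 (3.5e-05).

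**Figure D4:**
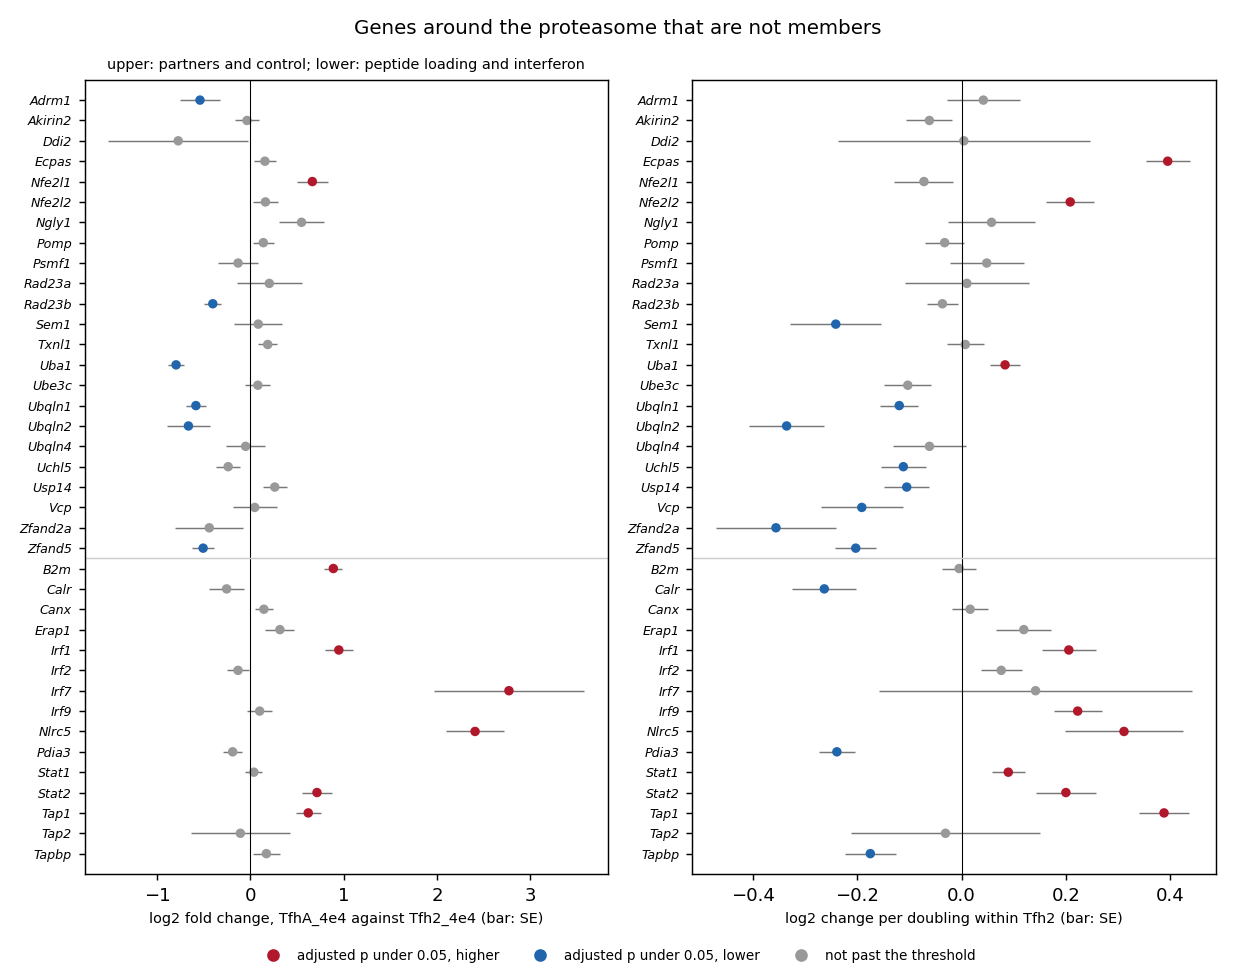
Log2 fold change of TfhA_4e4 against Tfh2_4e4 (left) and log2 change per doubling of the label number within Tfh2 (right), with SE, for proteasome partners and regulators (upper) and class I loading and interferon genes (lower); red marks genes called higher, blue lower and grey neither. On the left the lower list has 6 red genes and no blue one, and the upper list has 1 red and 6 blue.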

How the data were processed

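RNA was measured in 34 libraries of 6 groups set by the sample titles. The authors deposited raw read counts per numeric gene identifier, 1 library per table, and a joined table that repeats these values was not used. Per the submitters' processing notes STAR 2.7.2b, featureCounts 1.6.4 and the mm10 build were used; their roles, the strand setting and the treatment of reads with several matches are not given in the sources used here. Symbols came from RefSeq GRCm38.p6 for 25275 of 27179 identifiers; the 1904 without one held 48.9% of counts on average (39.6 to 54.2% per library), of which 2 identifiers held 48.4 percentage points, and they stayed in the library sizes.

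Counts were scaled by TMM in edgeR 4.0.16 (R 4.3.3). filterByExpr by group left 11357 genes, and 1 quasi-likelihood fit of all 34 libraries gave two-sided F-tests with Benjamini-Hochberg adjustment at 0.05. The slope within Tfh2 used the log2 of the label number over its 4 groups. An SE is the absolute log2 fold change divided by the square root of F. CPM use TMM-scaled library sizes, except for the 14 genes of the check of libraries, where unscaled totals were used. Log2 CPM use a prior count of 1. Ratios are log2 with 1 added to both counts, tested by exact permutation over libraries (scipy 1.17.1, Python 3.11.15). Motifs were read from RefSeq windows, and figures drawn with matplotlib 3.10.9. The tests were first run on simulated counts.

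The genes, lists, libraries doubted and tests were chosen with earlier results of these data known. The text names the 6 catalytic subunits, Psme1, Psme2, up to 4 called genes per direction and comparison whose log2 CPM averaged 3 or more, and the strongest called genes of both pathway lists; other names are said to be chosen after their values were seen or complete a short count. Alternatives were DESeq2 1.42.0, limma-voom (limma 3.58.1), 2 other scalings, no filter on low counts, rows with a symbol only, a replicate block, ranges of replicate numbers, the mitochondrial ribosomal RNA share, only the groups compared, leaving out both doubted libraries (Tfh2_4e4 replicate 3 and Tfh2_2e4 replicate 6) and leaving out each library in turn. Replicate numbers pair no samples by the labels, so the fits and ratio tests above are unpaired. Of 80 same-numbered pairs of libraries from different groups, 15 had deviations correlated above 0.1. The mean correlation was 0.049 for these pairs and -0.0098 for differently numbered pairs from different groups. What same-numbered libraries may share was not tested, and counts with a replicate block are given below. No pair of libraries of the same group agreed within sampling noise (chi-square per degree of freedom of at least 5.27). Pairs from different groups were not compared in this way.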

Additional observations from a re-analysis of the deposited data

Results flagged for a closer look

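In groups of 5 or 6 libraries, 7 of 126 sets of values of the named genes and ratios had 1 library far from the others, measured as its gap to the nearest library over the range of the group; chance alone gives such a gap in about 1 of 20 groups. In TfhA_4e4, replicate 1 had 12.3 CPM of Psmb5, the next lowest library having 21.3 CPM, and in the same library the log2 ratio of Psmb8 to Psmb5 was 3.59, the next highest being 2.78. In Tfh5_4e4, replicate 6 had 112.0 CPM of Psmd13, above the next at 93.8 CPM, and replicate 1 had a log2 ratio of Psmb10 to Psmb7 of -0.22, above the next at -0.87. In Tfh2_1e4, replicate 6 had 18.3 CPM of Psmb9, above the next at 10.7 CPM. In Tfh2_4e4, replicate 3, which also held genes of the TfhA_4e4 libraries, had 46.0 CPM of Psmd10, above the next at 37.5 CPM. In Tfh2_6e4, replicate 1 had 23.5 CPM of Psmb10, above the next at 13.4 CPM.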

How the results depend on the processing

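No called result changed direction; differences of log2 ratios that were not called took both signs for Psmb9 to Psmb6 in Tfh5_4e4 against Tfh2_4e4 and for Psmb10 to Psmb7 in Tfh2_6e4 against Tfh2_1e4, as the ranges below show. The number of genes lower in TfhA_4e4 against Tfh5_4e4, 1 as reported, was 2 with limma-voom, with the mitochondrial ribosomal RNA share as a covariate or with only the groups compared, 4 with ranges of replicate numbers as a factor or without Tfh2_4e4 replicate 3 and Tfh2_2e4 replicate 6, and 5 with the replicate block. The number lower in Tfh5_4e4 against Tfh2_4e4, 1 as reported, was 0 with only the groups compared. With the replicate block, higher and lower genes numbered 9 and 4 for TfhA_4e4 against Tfh2_4e4, 10 and 5 for TfhA_4e4 against Tfh5_4e4, 0 and 1 for Tfh5_4e4 against Tfh2_4e4, 4 and 31 for Tfh2_6e4 against Tfh2_1e4, and 5 rose and 32 fell along the numbers; over all genes the block gave 582 calls for Tfh5_4e4 against Tfh2_4e4, and 353 without it. DESeq2 gave 9 and 3, 12 and 1, 0 and 1, 4 and 29, and 4 and 31 in that order.

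Leaving out each library in turn, 8 to 9 genes were higher and 2 to 3 lower in TfhA_4e4 against Tfh2_4e4, 9 to 11 and 1 to 4 against Tfh5_4e4, and 0 and 0 to 1 in Tfh5_4e4 against Tfh2_4e4. Along the numbers 2 to 4 rose and 29 to 33 fell, and in Tfh2_6e4 against Tfh2_1e4 2 to 4 were higher and 26 to 31 lower. The log2 ratio of Psmb8 to Psmb5 then differed by 0.45 to 0.74, 0.91 to 1.18, -0.57 to -0.34 and 0.83 to 1.07 for TfhA_4e4 against Tfh2_4e4, TfhA_4e4 against Tfh5_4e4, Tfh5_4e4 against Tfh2_4e4 and Tfh2_6e4 against Tfh2_1e4, that of Psmb9 to Psmb6 by 0.57 to 1.04, 0.70 to 1.005, -0.27 to 0.21 and 0.69 to 1.11, and that of Psmb10 to Psmb7 by 0.29 to 0.65, 0.61 to 0.97, -0.44 to -0.17 and -0.34 to 0.05. Within replicates 1 to 3 and within replicates 4 to 6 the Psmb8 to Psmb5 difference was 1.11 and 0.98 for TfhA_4e4 against Tfh5_4e4, and that of Psmb9 to Psmb6 was 1.39 and 0.21 for TfhA_4e4 against Tfh2_4e4 and 0.58 and -0.61 for Tfh5_4e4 against Tfh2_4e4. The cause of these changes was not tested. The tested genes Psme2, Psma3, Psmc2, Psmg2 and Psmc3ip had 398 to 1401 counts in all, which limits what their tests can show.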

Other observations

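Psmb10 was highest in replicate 1 in 6 of 6 groups, and Psmb6 was highest in replicate 1 in 5 of 6 groups; Psmb5 was highest in replicate 3 in 4 of the 5 groups that have one. This was noticed after the values were seen, no cause was tested, and the labels do not say what a replicate number stands for.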
